A study of Homo sapiens with 8 samples.

Results

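The hypoxia system was followed through 9 genes in 143BTK- cells, a human osteosarcoma line without thymidine kinase, of 15982 genes in the count table. The genes were taken by symbol. HIF1A, EPAS1 and ARNT encode subunits of the hypoxia-inducible factors (HIF), EGLN1 and VHL encode proteins that remove HIF, and VEGFA, PLOD2, P4HA1 and BNIP3 are known HIF targets. All 9 had a row and all 9 passed the filter on low counts.

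The miR-101 group received a synthetic mimic of the microRNA hsa-miR-101-3p and the negative control group a scrambled one, each with 4 libraries numbered 1 to 4. Both groups had the same cells and medium, which held 10 mM galactose in place of glucose, 5% dialysed serum and uridine. Each mimic was given as 80 pmol at the start and again at 48 h, and cells were harvested at 120 h. The labels report separate transfection experiments of a single cell line, in ordinary culture at 5% CO2 with no hypoxia treatment named, and they give no oxygen level.

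In cells with ample oxygen, prolyl hydroxylases such as EGLN1 mark the alpha subunits HIF1A and EPAS1, and the VHL protein, part of a ubiquitin ligase, then sends them to the proteasome. When oxygen is short the alpha subunits persist, pair with ARNT and raise transcription of genes for vessel growth, glucose use, collagen modification and mitophagy. Because this control acts mainly on protein, the mRNA of an alpha subunit does not report its activity.

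With the mimic, 3 of the 9 mRNAs rose: EPAS1 2.03-fold, VEGFA 1.90-fold and PLOD2 1.74-fold. A gene is said to have risen or fallen, or to be called, where the p of edgeR's quasi-likelihood test, adjusted over all 15905 tested genes, was under 0.05. The same test called 3.30% of all tested genes higher and 3.32% lower. In EPAS1, VEGFA and PLOD2 the libraries of the groups did not overlap, as in 15.1% of all tested genes. HIF1A, ARNT, EGLN1, VHL, P4HA1 and BNIP3 did not pass the test. Of these, ARNT, EGLN1 and VHL had lower averages with the mimic and HIF1A, P4HA1 and BNIP3 had higher ones. VHL was the nearest to the threshold.

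The following sequences show the mimic's natural counterpart and the places in these genes where its seed can pair. The entry for mature miR-101-3p used here lies on GRCh38.p14 at chr9:4850345-4850365, plus strand, and has 21 bases. The capitals mark the seed, bases 2 to 8.
hsa-miR-101-3p: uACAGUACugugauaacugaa
Matches of 7 bases or more were searched in the longest annotated 3' UTR of each gene. VHL, P4HA1 and BNIP3 had 1 each, and the other 6 genes had none there or in any other annotated 3' UTR. The sites are given 5' to 3' on the mRNA strand with the match in capitals. In VHL and BNIP3 the match covers seed bases 2 to 8, and in P4HA1 it covers bases 2 to 7 followed by an A. The VHL site is at chr3:10151576-10151602, plus strand, the P4HA1 site at chr10:73007659-73007685, minus strand, and the BNIP3 site at chr10:131970294-131970320, minus strand, all on GRCh38.
VHL: agttgagattGTACTGTtcatacagtt
P4HA1: aaagaaagtaTACTGTAttttaccaac
BNIP3: tttctgtgtaGTACTGTggcgggaatg
Of 12188 tested genes with a 3' UTR, 23.9% had such a match. The median log2 fold change, miR-101 over negative control, was -0.26 over 560 genes with an 8-base match, -0.10 over 997 genes with the form seen in VHL and BNIP3, and 0.0035 over 1350 genes with the form seen in P4HA1. Over 9281 genes without a match it was -0.011. The 3 genes with a site had log2 fold changes of -0.35 for VHL, 0.21 for P4HA1 and 0.14 for BNIP3, and none of these passed the test. EPAS1, VEGFA and PLOD2, which rose, had no match.

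The pairs of HIF subunits bind DNA at a short core, ACGTG or GCGTG. Promoters from 250 bases before to 50 bases after the RefSeq start were found for 7 of the 9 genes, with 2 starts for HIF1A. VEGFA and VHL had no entry. The promoters of PLOD2, P4HA1 and BNIP3, targets of which 1 rose and 2 did not pass the test, are printed on the coding strand, with each core on either strand in capitals. They lie on GRCh38.p14, minus strand, at chr3:146161135-146161434 for PLOD2, chr10:73096817-73097116 for P4HA1 and chr10:131981874-131982173 for BNIP3.
PLOD2: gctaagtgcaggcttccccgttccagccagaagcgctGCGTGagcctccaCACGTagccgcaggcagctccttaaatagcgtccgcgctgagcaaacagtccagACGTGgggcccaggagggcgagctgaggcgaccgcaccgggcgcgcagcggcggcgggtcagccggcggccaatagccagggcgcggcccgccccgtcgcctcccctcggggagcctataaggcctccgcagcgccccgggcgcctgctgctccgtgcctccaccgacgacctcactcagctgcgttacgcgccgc
P4HA1: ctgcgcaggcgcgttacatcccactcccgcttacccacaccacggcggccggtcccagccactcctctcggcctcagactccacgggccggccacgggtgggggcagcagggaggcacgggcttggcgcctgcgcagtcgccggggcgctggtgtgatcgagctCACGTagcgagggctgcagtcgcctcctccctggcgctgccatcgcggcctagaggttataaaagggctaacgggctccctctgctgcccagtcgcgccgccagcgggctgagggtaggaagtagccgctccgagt
BNIP3: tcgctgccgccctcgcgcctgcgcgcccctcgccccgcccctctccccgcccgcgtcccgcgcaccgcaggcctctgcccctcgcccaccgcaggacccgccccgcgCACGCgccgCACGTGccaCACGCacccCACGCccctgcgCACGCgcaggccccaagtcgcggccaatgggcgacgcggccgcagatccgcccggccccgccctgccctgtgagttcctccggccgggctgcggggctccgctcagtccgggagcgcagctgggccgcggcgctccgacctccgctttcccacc
PLOD2 had 3 cores, P4HA1 1 and BNIP3 6, of which 2 overlap on opposite strands in the word CACGTG. EPAS1, EGLN1 and the first start of HIF1A had 1 each, and ARNT and the second start of HIF1A had none. A core was present in 60.2% of 14976 promoters of tested genes of the same length, and these matches are a description of the sequence only.

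Total counts ran from 17603054 to 20160267 per library. Of 15905 tested genes, edgeR called 1053, or 6.62%, with 525 higher and 528 lower. EZH2, a described miR-101 target, had 28.1 ± 2.09 CPM, read counts scaled to the library total, with the mimic and 45.7 ± 5.12 CPM in controls (SD, n = 4 each), with a log2 difference of -0.70 ± 0.11 (SE) and an edgeR adjusted p of 0.00561. Of 6 markers of mesenchymal and osteoblast cells, 5 had rows, and COL1A2 had none. Their summed level was 1133 to 2276 CPM with the mimic and 1155 to 1804 CPM in controls. In the same order of groups VIM had 476 to 806 and 526 to 899.5 CPM, and SPARC 362 to 1442 and 295 to 841 CPM. FN1 had 190 to 302 and 190 to 369 CPM. RUNX2 was lower, at 20.5 to 31.4 and 9.22 to 18.8 CPM, and COL1A1 was at 9.55 to 17.9 and 3.96 to 9.80 CPM. Of the epithelial markers only EPCAM had a row, with 9.30 to 17.0 CPM with the mimic and 5.11 to 10.0 CPM in controls. PECAM1, the one endothelial marker with a row, had 0.867 to 2.04 CPM with the mimic and 0.860 to 3.96 CPM in controls, and PTPRC, CD68 and HBB of blood cells had no row. The part of EPCAM in the results was not tested.

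Within each group libraries 1 and 2 lay closest together. The root mean square log2 difference over genes was 0.148 between these 2 with the mimic and 0.163 in controls, against 0.260 to 0.544 for the other pairs within a group. They still differed by more than read sampling alone, with a chi-square per gene of 3.79 with the mimic and 4.65 in controls. The other pairs within a group had 14.4 to 69.1. Whether libraries 1 and 2 came from separate cultures was not tested. They were kept as separate libraries, and fits with them summed are given below.

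Of the genes for alpha subunits, EPAS1 rose and HIF1A did not pass the test. EPAS1, also called HIF-2 alpha, maps to chr2:46293667-46386703 on GRCh38, plus strand, and no annotated gene overlaps it on the other strand. It had 147.4, 133.7, 139.2 and 116.0 CPM in miR-101 libraries 1 to 4, against 64.7, 68.0, 80.4 and 51.4 CPM in control libraries 1 to 4. Every mimic library was above every control library, and library 4 was the lowest of both groups. EPAS1 averaged 134.1 ± 13.3 CPM with the mimic and 66.1 ± 11.9 CPM in controls (SD, n = 4 each). EPAS1 had a log2 fold change of 1.02 ± 0.14 (SE; 95% interval 0.71 to 1.33), with an edgeR adjusted p of 0.00248. Pairs of the same number gave log2 ratios of 1.19, 0.98, 0.79 and 1.17. In bulk RNA, more expressing cells and more RNA per cell cannot be told apart, here and for the genes that follow.

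HIF1A, at chr14:61695513-61748259, plus strand, encodes the other alpha subunit. Its mRNA had 531.7, 509.5, 441.9 and 491.5 CPM in miR-101 libraries 1 to 4, against 528.4, 535.6, 454.1 and 419.0 CPM in control libraries 1 to 4. The groups overlapped over almost their whole ranges. The log2 fold change was 0.03 ± 0.11 (SE; 95% interval -0.22 to 0.28), with an edgeR adjusted p of 0.915. The antisense genes HIF1A-AS1 and HIF1A-AS2 overlap HIF1A, and their averages were 1.61 and 0.732 CPM with the mimic and 0.757 and 1.32 CPM in controls, small beside HIF1A. An annotated gene on the same strand, without a row in the count table, also overlaps exons of HIF1A. The HIF1A values are uncertain to the extent that its reads were counted. Per kilobase of exon, HIF1A was 5.11, 5.40, 4.50 and 6.01 times as abundant as EPAS1 in miR-101 libraries 1 to 4, and 11.6, 11.2, 8.01 and 11.6 times in control libraries 1 to 4. The ratio averaged 5.26 ± 0.63 with the mimic and 10.6 ± 1.72 in controls (SD, n = 4 each), with no overlap between groups.

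ARNT, the shared partner of both alpha subunits, maps to chr1:150809705-150876768, minus strand. It had 25.5, 27.1, 29.0 and 26.9 CPM in miR-101 libraries 1 to 4, against 29.1, 29.4, 27.0 and 29.8 CPM in control libraries 1 to 4. The groups overlapped, with library 3 the highest of the mimic libraries and the lowest of the controls. Its log2 fold change was -0.09 ± 0.10 (SE; 95% interval -0.30 to 0.13), with an edgeR adjusted p of 0.649.

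**Figure D1:**
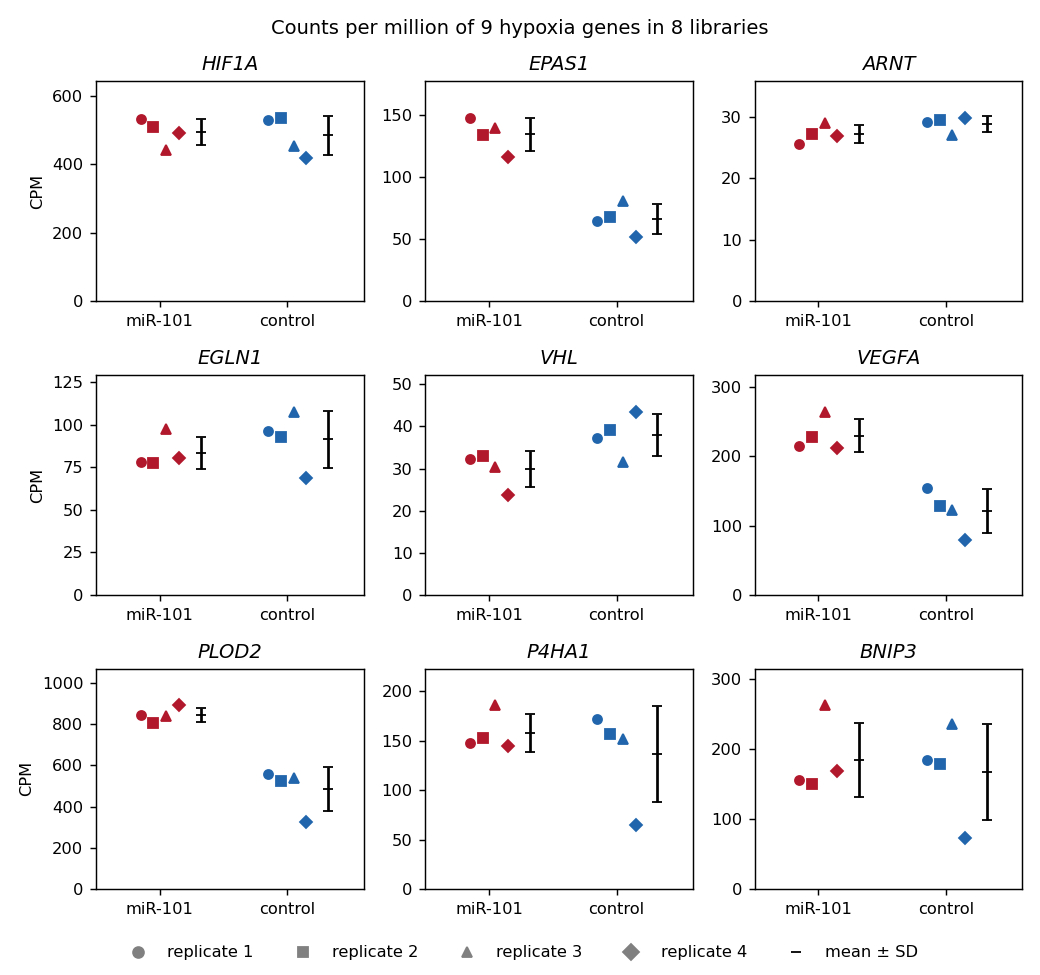
Levels (CPM, scaled read counts) of the 9 genes in each library, with miR-101 libraries left and negative control libraries right in each panel. Symbols mark the replicate number, and bars give the mean ± SD of 4 libraries. Only EPAS1, VEGFA and PLOD2 have no overlap between groups, and control library 4 lies lowest of the controls in 7 of the 9 genes.

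The genes that limit HIF did not pass the test. VHL, at chr3:10141008-10152220, plus strand, encodes the substrate receptor of the ubiquitin ligase for hydroxylated HIF. It had 32.2, 33.1, 30.4 and 23.7 CPM in miR-101 libraries 1 to 4, against 37.4, 39.2, 31.5 and 43.5 CPM in control libraries 1 to 4. The mimic library was below its control in 4 of 4 pairs, but the groups overlapped, since mimic libraries 1 and 2 lay above control library 3. VHL averaged 29.8 ± 4.26 CPM with the mimic and 37.9 ± 5.01 CPM in controls (SD, n = 4 each). For VHL the log2 fold change was -0.35 ± 0.14 (SE; 95% interval -0.65 to -0.04), and the edgeR adjusted p was 0.17 (unadjusted 0.0301).

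EGLN1, at chr1:231363751-231425044, minus strand, encodes the prolyl hydroxylase PHD2, the main oxygen sensor for HIF. It had 78.0, 77.6, 97.3 and 80.6 CPM in miR-101 libraries 1 to 4, against 96.2, 93.0, 107.7 and 68.4 CPM in control libraries 1 to 4. Library 3 was the highest of both groups, and control library 4 was the lowest of all 8. For EGLN1 the log2 fold change was -0.13 ± 0.14 (SE; 95% interval -0.45 to 0.18), with an edgeR adjusted p of 0.635.

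Among the targets, VEGFA encodes a secreted growth factor of vessel endothelium and maps to chr6:43770184-43786487, plus strand. It had 214.8, 227.5, 264.3 and 212.5 CPM in miR-101 libraries 1 to 4, against 153.6, 128.7, 123.1 and 79.0 CPM in control libraries 1 to 4. All mimic libraries lay above all controls, and control library 4 was the lowest of all 8. VEGFA averaged 229.8 ± 23.9 CPM with the mimic and 121.1 ± 31.1 CPM in controls (SD, n = 4 each). VEGFA had a log2 fold change of 0.92 ± 0.18 (SE; 95% interval 0.53 to 1.32), with an edgeR adjusted p of 0.0123. The call was lost with libraries 1 and 2 summed (edgeR adjusted p 0.0612). The log2 ratios of pairs 1 to 4 were 0.48, 0.82, 1.10 and 1.43, smallest in pair 1 and largest in pair 4.

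PLOD2, at chr3:146069440-146163653, minus strand, encodes a lysyl hydroxylase that acts on collagen telopeptides and so shapes collagen cross-links. It had 843.7, 807.2, 841.8 and 891.7 CPM in miR-101 libraries 1 to 4, against 557.8, 523.7, 538.5 and 326.7 CPM in control libraries 1 to 4. The groups were far apart, and control library 4 stood below the other 3 controls. PLOD2 averaged 846.1 ± 34.7 CPM with the mimic and 486.7 ± 107.5 CPM in controls (SD, n = 4 each). Between groups PLOD2 had a log2 fold change of 0.80 ± 0.16 (SE; 95% interval 0.45 to 1.14), with an edgeR adjusted p of 0.0135. The log2 ratios of pairs 1 to 4 were 0.60, 0.62, 0.64 and 1.45, so pair 4 differed from 3 nearly equal ones. Without control library 4 the log2 fold change was 0.65, with an edgeR adjusted p of 0.00275. With libraries 1 and 2 summed it was 0.86 and not called (edgeR adjusted p 0.0843). An annotated gene on the other strand overlaps exons of PLOD2, and another overlaps exons of VEGFA, so these values are uncertain to the extent that such reads were counted.

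P4HA1, at chr10:73007217-73096974, minus strand, encodes the alpha subunit of collagen prolyl 4-hydroxylase. It had 148.1, 152.4, 185.9 and 144.3 CPM in miR-101 libraries 1 to 4, against 172.3, 157.2, 151.9 and 64.4 CPM in control libraries 1 to 4. The groups overlapped, and control library 4 was the lowest of all 8. P4HA1 had a log2 fold change of 0.21 ± 0.25 (SE; 95% interval -0.34 to 0.76), with an edgeR adjusted p of 0.667, and it was -0.026 without control library 4. An annotated gene on the other strand overlaps exons of P4HA1 too, with the same limit.

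BNIP3, at chr10:131966455-131982013, minus strand, encodes a mitochondrial outer membrane protein that recruits the autophagy machinery. It had 155.2, 150.0, 261.9 and 168.1 CPM in miR-101 libraries 1 to 4, against 183.4, 178.0, 235.5 and 72.5 CPM in control libraries 1 to 4. Library 3 was the highest of both groups, and again control library 4 was below all others. For BNIP3 the fit gave a log2 fold change of 0.14 ± 0.30 (SE; 95% interval -0.54 to 0.81), with an edgeR adjusted p of 0.84, and it was -0.11 without control library 4. The pseudogene BNIP3P1, with which BNIP3 may share reads, averaged 98.4 ± 22.0 CPM with the mimic and 92.2 ± 35.2 CPM in controls (SD, n = 4 each). With both summed, the log2 fold change was 0.12 and the edgeR adjusted p 0.854.

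**Figure D2:**
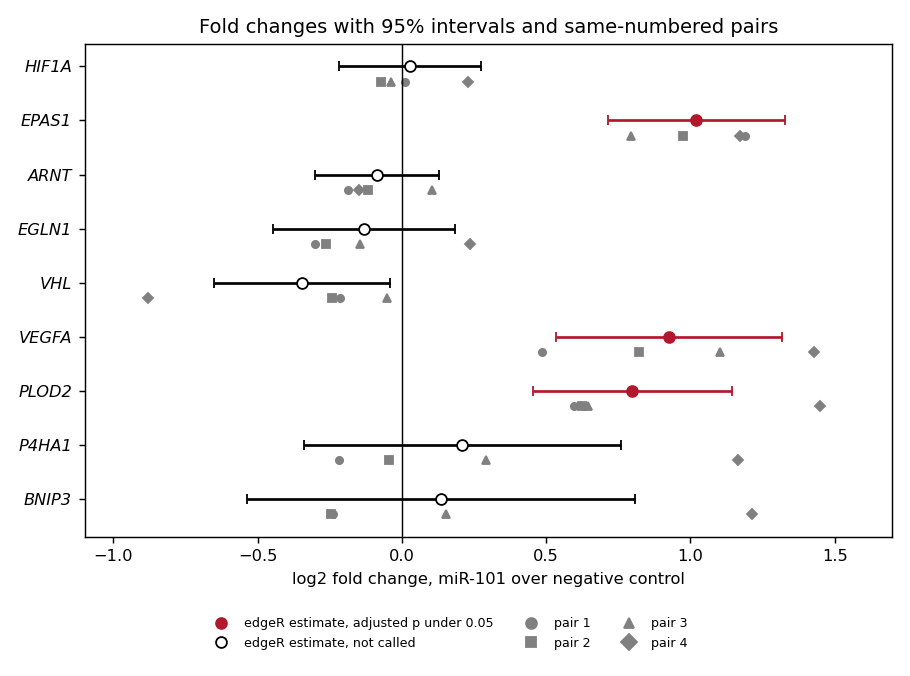
log2 fold change of each gene, miR-101 over negative control, with its 95% interval (large symbols; filled where edgeR's adjusted p was under 0.05) and the log2 ratio of each same-numbered pair of libraries (grey symbols). The intervals of EPAS1, VEGFA and PLOD2 lie wholly above 0 and all their pairs are positive, whereas the pairs of P4HA1 and BNIP3 fall on both sides of 0.

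As a group, 3 of the 9 genes were called higher, beside 3.30% of all tested genes, and 0 were called lower, beside 3.32%. By an unadjusted p under 0.05 edgeR gave 4 genes, the 3 that rose and VHL, beside 3539 of 15905 tested genes. By adjusted p, DESeq2 and limma-voom each called 3 higher and 0 lower, as edgeR did. The median log2 fold change was 0.14 over the 9 genes and -0.0051 over all tested genes. The calls of EPAS1, VEGFA and PLOD2 were kept in all 8 fits that left out 1 library, with highest edgeR adjusted p-values of 0.0135, 0.042 and 0.0453. Each of these fits still held the close libraries 1 and 2 of at least 1 group. With libraries 1 and 2 summed, EPAS1 stayed called (edgeR adjusted p 0.0432), and the calls of VEGFA (0.0612) and PLOD2 (0.0843) were lost. In a fit blocked on the replicate number the 3 calls were kept and no other gene of the 9 was called, while the calls over the whole table went up to 883 higher (5.55%) and 793 lower (4.99%).

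Several of the 9 genes also varied between cultures of the same group. In controls, library 4 was the lowest of the 4 for 7 of 9 genes, while it was the lowest for 32.9% of all tested genes. Its deviation from the control mean on the log2 scale was -1.08 for BNIP3, -0.98 for P4HA1, -0.57 for VEGFA and -0.54 for PLOD2, while ARNT and VHL lay above their means. In the miR-101 group, library 3 was the highest for 5 of 9 genes, while it was the highest for 23.5% of all tested genes, and its deviation was 0.55 for BNIP3 and 0.24 for P4HA1. Without miR-101 library 3 the log2 fold change was 0.11 for P4HA1 and -0.089 for BNIP3, beside -0.026 and -0.11 without control library 4.

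Libraries 1 and 2 alone gave log2 fold changes of 1.08 for EPAS1, 0.64 for VEGFA and 0.60 for PLOD2, each called, while libraries 3 and 4 alone gave 0.95, 1.24 and 1.00, none called, with edgeR adjusted p-values of 0.354, 0.232 and 0.333. In libraries 3 and 4 alone 6 genes of the whole table were called. In libraries 1 and 2 alone, 16.0% of 15822 tested genes were called higher and 16.4% lower. EGLN1, VHL and BNIP3 were also called there, lower, with log2 fold changes of -0.29, -0.24 and -0.25. Their edgeR adjusted p-values were 0.00228, 0.0309 and 0.00535. Calls in libraries 1 and 2 alone rest on the spread within the closest libraries of each group, not on the wider spread among all 4. On all 8 libraries BNIP3 had 0.14. The difference between the effects in libraries 1 and 2 and in libraries 3 and 4 was tested by an interaction term. With that term edgeR called 0 of 15905 genes (343 at an unadjusted p under 0.05), and for the 9 genes every adjusted p was 1, with unadjusted p-values from 0.0837 (VEGFA, -0.59 ± 0.30 on the log2 scale) to 0.669 (EPAS1).

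**Figure D3:**
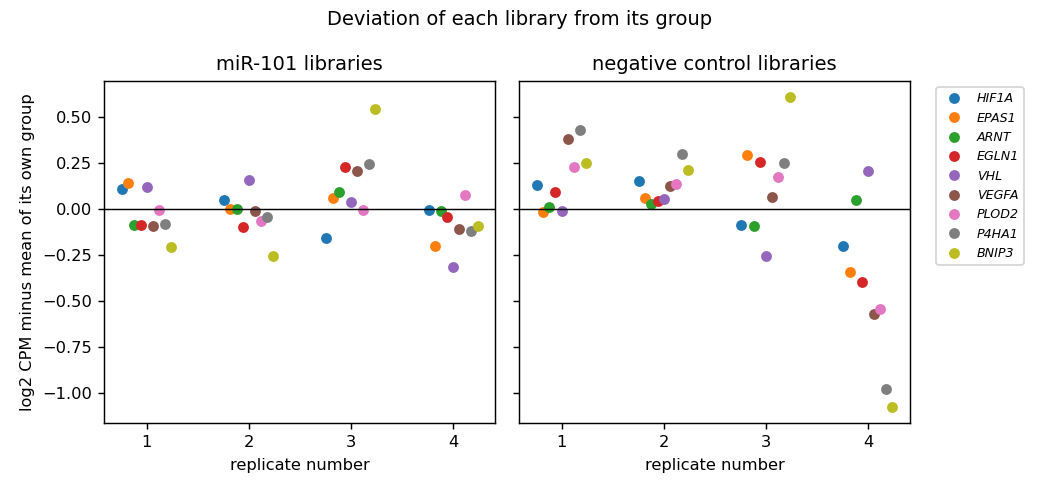
Deviation of log2 CPM from the mean of its own group (vertical axis) for the 9 genes by replicate number, with miR-101 libraries left and negative control libraries right. The spread is widest in control library 4, from -1.08 for BNIP3 to 0.21 for VHL, and BNIP3 is highest in library 3 of both groups.

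Levels of different genes were compared as CPM per kilobase of exon. In miR-101 libraries PLOD2 was the most abundant at 110.7 ± 4.54, followed by HIF1A at 95.8 ± 7.42, P4HA1 at 51.0 ± 6.19 and BNIP3 at 34.5 ± 9.88 (SD, n = 4). EPAS1 came next at 18.4 ± 1.82 and VEGFA at 15.9 ± 1.66, followed by EGLN1 at 11.5 ± 1.29, VHL at 7.08 ± 1.01 and ARNT at 4.17 ± 0.22. The neighbours P4HA1 and BNIP3 overlapped, as did EPAS1 and VEGFA, and the other neighbours in this order did not. In controls HIF1A came first at 94.0 ± 11.1 with no overlap with PLOD2 at 63.7 ± 14.1, and ARNT came last at 4.42 ± 0.19. Between them P4HA1, BNIP3, EGLN1, EPAS1, VHL and VEGFA, at 44.1, 31.4, 12.6, 9.05, 8.99 and 8.39, overlapped from each neighbour to the next, as did PLOD2 and P4HA1. With the length of the longest transcript in place of all exons, PLOD2 came before HIF1A in controls too, at 126.9 against 122.4, and BNIP3 before P4HA1 in both groups.

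The genes whose profiles over the 8 libraries were most like those of the 3 that rose were ranked by the root mean square difference of centred log2 CPM, among 11501 other genes of at least 4 CPM. Nearest to EPAS1 were PPP1R3C (0.0692), ITGA4 (0.102) and PTPRG (0.118). Nearest to VEGFA were IL1RAP (0.119), PLA2G4A (0.123) and F2RL1 (0.130), and nearest to PLOD2 were ADAM10 (0.0867), TMEM67 (0.101) and CPE (0.105). None of the 9 belongs to the lists of the pathway used here.

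Other genes of the HIF machinery did not pass the test on all 8 libraries. Of 13 tested subunits and regulators edgeR called 0, beside 3.30% of all tested genes called higher and 3.32% lower. DESeq2 and limma-voom called 0 too. Libraries 1 and 2 alone called 1 higher and 4 lower, beside 16.0% and 16.4% of all genes tested there. Without control library 4, 1 was called higher and 1 lower, beside 670 and 749 of 15932 genes tested there. Without miR-101 library 4, 0 were called higher and 1 lower, beside 423 and 417 of 15923. An unadjusted p under 0.05 in edgeR was found for 1 higher and 1 lower gene, beside 3539 of 15905 tested genes. The median log2 fold change of the 13 was -0.12, beside -0.0051 over all tested genes. The smallest p belonged to TCEB2, elongin B of the VHL ligase, with a log2 fold change of -0.26 ± 0.11 (SE) and an edgeR adjusted p of 0.185. TCEB2 was called without control library 4 (edgeR adjusted p 0.0435) and in libraries 1 and 2 alone (0.000539). HIF3A had no row in the count table.

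Among 18 tested HIF targets of glucose use 1 was called, higher, beside 3.30% of all tested genes, and the median log2 fold change was -0.071. Libraries 1 and 2 alone called 1 higher and 10 lower, beside 16.0% and 16.4% of all genes tested there. SLC2A3, a high-affinity glucose transporter, had 437.9, 468.7, 497.6 and 285.3 CPM in miR-101 libraries 1 to 4, against 156.4, 137.5, 85.3 and 46.3 CPM in control libraries 1 to 4. The groups did not overlap, and library 4 was the lowest of both. The log2 fold change was 1.99 ± 0.33 (SE), with an edgeR adjusted p of 0.00635. The glycolytic enzymes, kinases and other transporters of this list did not pass the test on all 8 libraries.

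Of 24 other tested HIF targets, 2 were called, both higher, beside 3.30% of all tested genes, and the median log2 fold change was -0.0043. Libraries 1 and 2 alone called 5 higher and 8 lower, beside 16.0% and 16.4% of all genes tested there. ADM, the vasodilator peptide adrenomedullin, averaged 112.4 ± 14.4 CPM with the mimic and 43.1 ± 7.64 CPM in controls (SD, n = 4 each), with a log2 difference of 1.38 ± 0.15 (SE) with an edgeR adjusted p of 0.000843. TMEM45A, a transmembrane protein, averaged 23.4 ± 5.72 CPM with the mimic and 11.5 ± 1.67 CPM in controls (SD, n = 4 each), with a log2 difference of 1.03 ± 0.18 (SE) with an edgeR adjusted p of 0.00754, which was 0.0559 with libraries 1 and 2 summed into 1 sample per group. With the replicate block 5 were called higher and 2 lower in this list, beside 5.55% and 4.99% of all tested genes. With libraries 1 and 2 summed 1 was called higher and 0 lower, beside 106 and 67 of 15928 genes tested there. The block added LOX, which cross-links collagen, at a log2 fold change of 0.87, the lipoprotein lipase inhibitor ANGPTL4 at 1.17 and the transferrin receptor TFRC at 0.36. Among the genes it added as lower was ERO1A, an oxidase of protein folding, at -0.39. CA9 and EPO had no row in the count table.

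Among 10 other tested collagen hydroxylases and their partners 1 was called, higher, beside 3.30% of all tested genes, with a median log2 fold change of 0.17. P3H2, a prolyl 3-hydroxylase of collagen, averaged 67.7 ± 10.3 CPM with the mimic and 36.4 ± 5.38 CPM in controls (SD, n = 4 each), with a log2 difference of 0.89 ± 0.14 (SE) with an edgeR adjusted p of 0.00526. The call was lost with libraries 1 and 2 summed (edgeR adjusted p 0.0714). In the VEGF family and its receptors 1 of 8 tested genes was called, also higher, beside 3.30% of all tested genes. The median log2 fold change of this list was -0.091. FLT1, a receptor of VEGFA, averaged 51.3 ± 8.64 CPM with the mimic and 25.2 ± 7.28 CPM in controls (SD, n = 4 each), with a log2 difference of 1.03 ± 0.21 (SE) with an edgeR adjusted p of 0.0163. Its call was lost without miR-101 library 1 or 2, with edgeR adjusted p-values of 0.0583 and 0.0564, and with libraries 1 and 2 summed (0.0851).

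Of 9 tested mitophagy receptors and adaptors beside BNIP3, 1 was called, lower, beside 3.32% of all tested genes, and the median log2 fold change was -0.018. PINK1, the kinase that marks damaged mitochondria, had 34.5, 39.6, 31.4 and 40.8 CPM in miR-101 libraries 1 to 4, against 56.2, 55.2, 47.4 and 91.0 CPM in control libraries 1 to 4. The groups did not overlap, and control library 4 was the highest of all 8. The log2 fold change was -0.77 ± 0.19 (SE), with an edgeR adjusted p of 0.0368. The call held in 2 of 8 fits that left out 1 library, those without control library 3 or 4, and the highest edgeR adjusted p over the 8 was 0.109. It was also lost with scaling to total counts only (edgeR adjusted p 0.0547) and with libraries 1 and 2 summed (0.156).

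**Figure D4:**
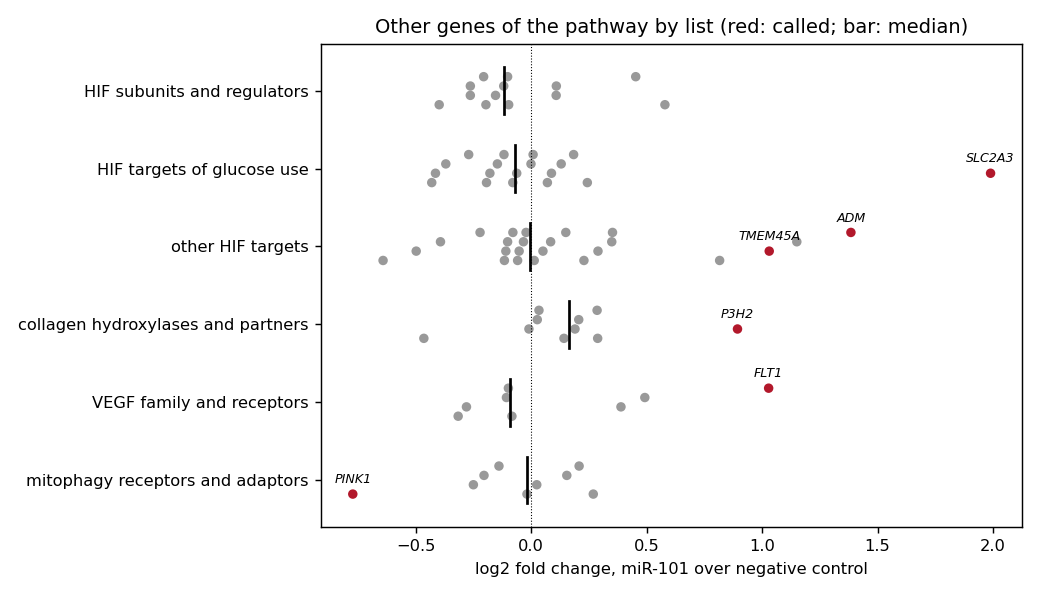
log2 fold change, miR-101 over negative control, of the tested genes in 6 lists of the pathway (grey points; red where edgeR's adjusted p was under 0.05), with the median of each list as a black bar. SLC2A3, ADM, TMEM45A, P3H2 and FLT1 lie at 0.89 or above, PINK1 lies at -0.77, and each median is within 0.17 of 0.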

How the data were processed

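The data are ribosomal RNA-depleted RNA-seq libraries of 143BTK- cells, 4 given a miR-101-3p mimic and 4 given a negative control mimic. The authors deposited whole-number read counts per gene symbol, not normalised. The tools named in the submitters' processing notes are StringTie 1.2.4, TopHat2 2.0.14 and bcl2fastq 2.18.0.12, with hg38 as the build. Not given in the sources used here are the counting program, its annotation and its use of strand, so reads of a gene and of an antisense partner cannot be told apart.

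Tests on the counts used edgeR 4.0.16 under R 4.3.3 (filterByExpr with a minimum count of 10, TMM factors, glmQLFit without robust estimation, glmQLFTest). The Benjamini-Hochberg adjustment ran over all 15905 tested genes, and calls were made under 0.05. The 95% intervals come from the same fit. Alternatives were DESeq2 1.42.0, limma-voom (limma 3.58.1), other scalings, no filter, a replicate block, subsets of libraries, BNIP3 summed with its pseudogene (chosen after seeing the data), another gene length and other 3' UTRs. For CPM, each count was divided by the library total times its TMM factor.

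The 9 genes and all lists were chosen with earlier results of these data known. Named genes are the 9 members, EZH2, the called genes of each list (up to 4 per direction), the smallest p of a list without a call, and the 3 genes of at least 4 CPM most like each of the 3 members with the smallest p. Genes that the replicate block added in one list were named after their values were seen, and 1 of them is not reported here.

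The labels describe separate transfection experiments, and same-numbered libraries deviated together. The correlations of their deviations from the group means were 0.438, 0.633, 0.223 and 0.212 for numbers 1 to 4 over 11502 genes, so the numbers were taken to pair the libraries, although numbers 1 and 4 did not correlate best with their own number. Loci, gene lengths and 3' UTRs come from GENCODE 29 on GRCh38, and miRNA and promoter sequences from RefSeq on GRCh38.p14.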

Additional observations from a re-analysis of the deposited data

Results flagged for a closer look

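A library far from the other 3 of its group was looked for in each gene and group. Of 18 such groups of 4, 3 held one, where chance alone gives about 1 in 20 for a single group. The 18 groups come from the same 8 libraries and are not independent, so an excess over chance was not tested. EGLN1 had 97.3 CPM in miR-101 library 3, against 77.6 to 80.6 CPM in the other 3 mimic libraries. BNIP3 had 261.9 CPM in the same library, against 150.0 to 168.1 CPM in the others. PLOD2 had 326.7 CPM in negative control library 4, against 523.7 to 557.8 CPM in the other 3 controls.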

How the results depend on the processing

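EPAS1, VEGFA and PLOD2 stayed higher and called, and the other 6 genes uncalled, under the other scalings, DESeq2, limma-voom, no filter, the replicate block and each left-out library. Same-numbered libraries were taken as pairs, and with the replicate block the log2 fold changes were 1.03, 0.96 and 0.83, with edgeR adjusted p-values of 0.00162, 0.00723 and 0.0135. Libraries 3 and 4 alone called 0 of the 9 higher. Summing libraries 1 and 2 into 1 sample per group left 1 called, EPAS1 (0.0432), with 1.02 for VEGFA (0.0612) and 0.86 for PLOD2 (0.0843). Libraries 1 and 2 alone called 3 of the 9 lower, beside 16.4% of all genes tested there. Libraries 3 and 4 alone called none of the 6 list genes called on all libraries, with edgeR adjusted p-values from 0.0999 (SLC2A3) to 0.537 (P3H2). With only 1 library left out, 3 of the 9 were called higher and 0 lower in every fit.

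Over the whole table the counts higher and lower were 840 and 874 with DESeq2, 883 and 793 with the block, 2534 and 2592 in libraries 1 and 2 alone, 6 and 0 in libraries 3 and 4 alone, and 106 and 67 with libraries 1 and 2 summed. Leaving out 1 library gave 258 to 670 higher and 227 to 749 lower. All calls together were 488, 489 and 684 without miR-101 library 1, 2 or 3, and 615 and 564 without control library 1 or 2. Among the 24 other HIF targets, DESeq2 and limma-voom each called 4 higher and 1 lower. Over all tested genes DESeq2 called 840 higher and 874 lower of 15667, and limma-voom 551 and 508 of 15905.

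Of the uncalled genes, HIF1A turned to -0.037 in libraries 1 and 2 alone, and to -0.01, -0.0072 and -0.036 without miR-101 library 1, control library 3 or control library 4; the left-out-library fits reached up to 0.079 and libraries 3 and 4 alone gave 0.097. EGLN1 turned to 0.016 in libraries 3 and 4 alone. P4HA1 turned to -0.14 in libraries 1 and 2 alone and -0.026 without control library 4; the left-out-library fits reached up to 0.34 and libraries 3 and 4 alone gave 0.61. BNIP3 turned to -0.25 in libraries 1 and 2 alone, and to -0.089 and -0.11 without miR-101 library 3 or control library 4; the left-out-library fits reached up to 0.34 and libraries 3 and 4 alone gave 0.48. The cause was not tested. The smaller subsets hold fewer samples, and the lowest value of the 9 genes in any library was 23.7 CPM.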

Other observations

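In the HIF targets of the lists, as in the 9 genes, miR-101 library 3 was often the highest and control library 4 often the lowest. Of 42 such targets, 37 (88.1%) were highest of the mimic libraries in miR-101 library 3, where 23.5% of all tested genes were highest, and 28 (66.7%) were lowest in miR-101 library 4, against 34.3% of all tested genes. In controls 35 of 42 (83.3%) were lowest in library 4, against 32.9% of all tested genes. Of the 9 genes, 4 (44.4%) were lowest of the mimic libraries in miR-101 library 4. HIF1A-AS2, antisense to HIF1A, had 90 counts in control library 4 and between 1 and 27 counts in the other 7 libraries. HIF1A-AS1 averaged 1.61 ± 0.33 CPM with the mimic and 0.757 ± 0.34 CPM in controls (SD, n = 4 each), with an edgeR adjusted p of 0.0808.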
